A study of Mus musculus with 8 samples.

Results

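Leukocyte-type genes were followed through a carcinoma cell line with and without Tead1 and Tead4. The set comprises Cd53, Laptm5, Cd68, Cd14, Lyz2, Mpeg1, Coro1a and Ptprc, 8 of the 26642 rows of the deposited count table, picked by symbol. The first 7 were picked because an earlier look at these data had shown them higher in the knockout, and Ptprc was added as a leukocyte control. Their knockout and WT values are therefore given as a description, with no p-value.

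The cells are CT26, a mouse colon carcinoma line grown in RPMI medium with serum. The 2 groups are Tead1/4 knockout cells (KO, 4 libraries) and unedited cells (WT, 4 libraries), and the question posed by the series is how their transcript profiles differ. All 8 libraries come from the same line and the same culture conditions, and no stimulus or co-culture with immune cells is named in the labels. The labels do not give the edited sites, whether the knockout is 1 clone or a pool, and do not say if replicates are separate cultures; the spread between libraries may be technical. TEAD proteins bind DNA for the Hippo pathway effectors YAP and TAZ. Tead1 was at 51.2 to 77.8 CPM (counts scaled to library size) in KO and 142 to 319 CPM in WT, and Tead4 at 23.3 to 37.0 CPM in KO and 36.7 to 63.2 CPM in WT. Total counts per library lay between 29679405 and 32774905, and the scaled (TMM) library sizes used for CPM between 27174857 and 34383665. At the scaled sizes 3 counts, the limit that a count of 0 allows, correspond to 0.0873 to 0.110 CPM.

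The label of colon carcinoma cells was set against epithelial and colonic markers. Of 19 such genes, 3 were at 0 in all libraries and 8, those 3 included, never passed 3 counts in any library. Krt18, a simple-epithelium keratin, was at 76.3 ± 8.65 CPM in KO and 38.5 ± 2.93 CPM in WT (SD, n = 4 each), and Krt20, a keratin of intestinal epithelium, at 47.4 ± 9.12 CPM in KO and 34.6 ± 19.2 CPM in WT. Epcam, the epithelial adhesion molecule, had no count in any library, and Cdh1, which encodes E-cadherin, had 0 to 5 counts in KO and none in WT (named after their values were seen). Vim, the mesenchymal filament gene, was at 2812 ± 680 CPM in KO and 2908 ± 505 CPM in WT.

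As background, leukocyte-type genes serve surface signalling, engulfment and the digestion of microbes. Ptprc encodes CD45, a receptor phosphatase carried by nearly all nucleated blood cells and often used to tell leukocytes from other cells. CD14 hands bacterial lipopolysaccharide to the receptor TLR4, CD68 and LAPTM5 sit in lysosomal membranes, lysozyme cuts bacterial cell walls, and perforin-2, the product of Mpeg1, forms pores in engulfed bacteria. Several of these genes, Cd14 and Cd68 among them, are also transcribed at lower levels outside the blood lineages.

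Cd53, which encodes a tetraspanin of the leukocyte surface, showed the largest fold of the genes that passed the filter on low counts. It stood at 23.8, 32.7, 38.3 and 41.5 CPM in KO replicates 1 to 4, against 1.66, 2.53, 2.09 and 1.81 CPM in WT replicates 1 to 4. Every KO library lay above every WT library, with a mean of 34.1 ± 7.76 CPM in KO and 2.02 ± 0.382 CPM in WT (SD, n = 4 each), a 16.9-fold difference. The fitted log2 fold change, knockout minus WT as everywhere below, was 4.07 (SE 0.24), and it lay between 3.97 and 4.19 with any 1 library left out. In bulk RNA such as this, more cells that express a gene and more RNA per cell cannot be told apart. The gene (ENSMUSG00000040747) lies on the minus strand of GRCm38 chromosome 3 from 106759921 to 106790149.

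Laptm5, a lysosomal membrane protein gene of haematopoietic cells, was detected in KO libraries alone and close to the detection limit. It had 5, 11, 6 and 16 counts in the KO libraries, against 0 in each WT library. With WT set to 3 counts per library, 0.105 CPM on average, its mean of 0.289 ± 0.155 CPM in KO was at least 2.75-fold higher. The gene (ENSMUSG00000028581; chromosome 4, 130913125 to 130936141, plus strand) did not pass the filter on low counts.

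Cd68, a heavily glycosylated lysosomal protein gene used as a macrophage marker, was at 12.3, 11.9, 11.8 and 8.77 CPM in KO replicates 1 to 4. In WT replicates 1 to 4 it was at 3.35, 1.33, 1.08 and 2.80 CPM. The groups did not overlap, and within WT replicates 1 and 4 were above replicates 2 and 3. The means were 11.2 ± 1.62 CPM in KO and 2.14 ± 1.11 CPM in WT, a 5.23-fold difference with a fitted log2 fold change of 2.39 (SE 0.37). The gene (ENSMUSG00000018774) occupies chromosome 11 from 69664213 to 69666153 on the minus strand, 782 bases from Eif4a1 on the same strand. Eif4a1, an abundant translation initiation helicase gene, was at 588 ± 180 CPM in KO and 869 ± 166 CPM in WT (edgeR adjusted p = 0.0786), so Cd68 and this neighbour had opposite signs. Whether read-through from it enters the Cd68 counts was not tested.

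Cd14, the lipopolysaccharide co-receptor gene, had the highest level of the 8 in both genotypes and the smallest fold among those that passed the filter. It was at 48.0, 67.5, 49.6 and 47.0 CPM in KO replicates 1 to 4, against 17.5, 23.7, 37.0 and 18.4 CPM in WT replicates 1 to 4. The lowest KO library stood above the highest WT library, WT replicate 3, and the WT order was the reverse of that for Cd68, with replicates 2 and 3 on top. The means of 53.0 ± 9.72 CPM in KO and 24.1 ± 8.97 CPM in WT gave a 2.20-fold difference and a fitted log2 fold change of 1.13 (SE 0.25). Cd14 is ENSMUSG00000051439 on the minus strand of chromosome 18, 36725067 to 36726798.

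Lyz2, the lysozyme gene of macrophages and neutrophils, was at 4.17, 2.19, 2.12 and 1.07 CPM in KO replicates 1 to 4. In WT it was at 0.405, 0.375, 0.236 and 0 CPM. All KO libraries stood above all WT libraries. The means were 2.39 ± 1.29 CPM in KO and 0.254 ± 0.185 CPM in WT, 9.40-fold apart, with a fitted log2 fold change of 3.21 (SE 0.75). Lyz1, the paralog of intestinal Paneth cells with a closely similar sequence, had no count in any library. The sources used here do not say how reads shared by Lyz1 and Lyz2 were assigned, and the level of Lyz2 (ENSMUSG00000069516; chromosome 10, 117277331 to 117282321, minus strand) is uncertain to that extent.

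Mpeg1, the perforin-2 gene, and Coro1a, which encodes an actin-binding coronin of leukocytes, were low and uneven. Mpeg1 had 5, 42, 40 and 44 counts in KO replicates 1 to 4, against 0, 7, 8 and 0 counts in WT replicates 1 to 4. KO replicate 1 fell inside the WT range, so the genotypes overlapped, and the means were 0.986 ± 0.557 CPM in KO and 0.127 ± 0.147 CPM in WT, 7.76-fold apart and 12.4-fold apart without WT replicate 3. Coro1a had 17, 66, 23 and 14 counts in KO and 0, 4, 6 and 0 counts in WT. Its groups did not overlap, and KO replicate 2 held 66 of the 120 KO counts. The Coro1a means were 0.911 ± 0.739 CPM in KO and 0.0847 ± 0.101 CPM in WT, a 10.8-fold difference that became 6.43-fold without KO replicate 2 and 20-fold without WT replicate 3 (fitted log2 fold change 3.34, SE 0.93, with all libraries). For both genes the only WT libraries with counts were replicates 2 and 3.

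Both genes have close neighbours. Dtx4, a ubiquitin ligase gene on the opposite strand 1054 bases from Mpeg1 (ENSMUSG00000046805; chromosome 19, 12460779 to 12465283, plus strand), had 22, 178, 177 and 95 counts in KO and 3, 8, 8 and 2 counts in WT. It rose by 4.25 on the log2 scale (SE 0.72, edgeR adjusted p = 0.00233; named after its values were seen), and its lowest KO library was again replicate 1. Dtx4 had no WT library over the filter's limit of 0.33 CPM, so it passed the filter through its KO libraries alone. Bola2 overlaps Coro1a (ENSMUSG00000030707; chromosome 7, 126699773 to 126707787, minus strand) by 26 exonic bases on the other strand. Bola2 was at 21.3 ± 7.96 CPM in KO and 14.9 ± 2.63 CPM in WT (edgeR adjusted p = 0.123). The sources used here do not say if counting used strand, and the part of these neighbours in the Mpeg1 and Coro1a counts was not tested.

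Ptprc, the CD45 gene, was at the detection limit in both genotypes. It had 0, 2, 0 and 0 counts in the KO libraries and 0, 0, 3 and 0 counts in the WT libraries. No fold is given, since both genotypes are under 3 counts per library on average. The gene (ENSMUSG00000026395) spans chromosome 1 from 138062861 to 138175708 on the minus strand and has 18.3 kb of annotated exon, the longest of the 8.

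**Figure D1:**
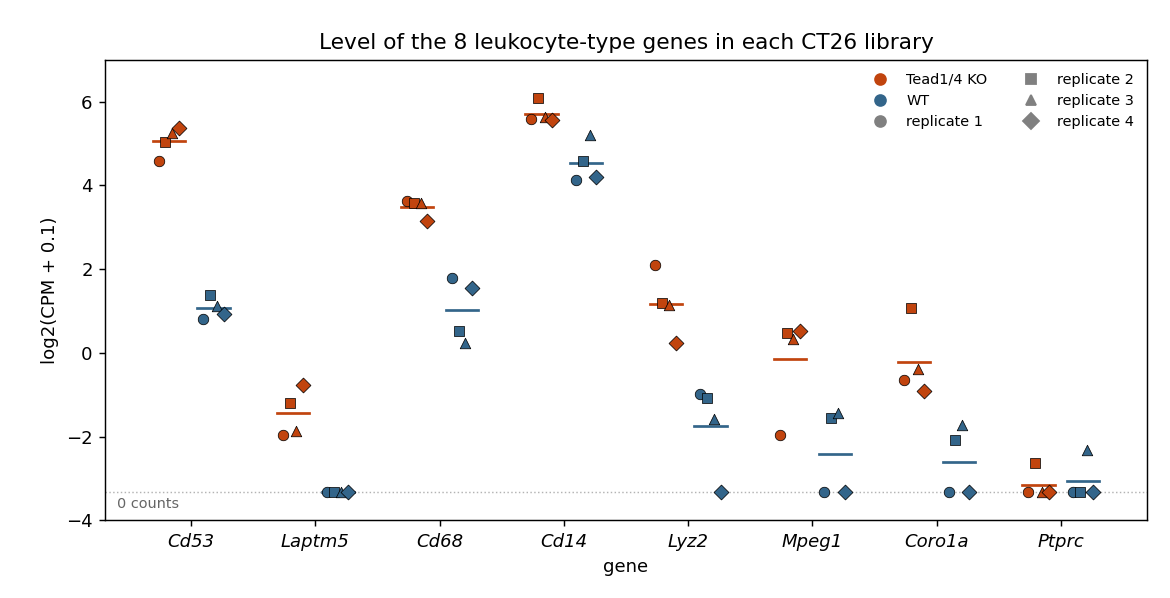
Level of the 8 genes in each library as log2(CPM + 0.1) on the y axis, with Tead1/4 KO in orange and WT in blue; marker shapes give the replicate, short lines the mean of the 4 log2 values, and the dotted line a count of 0. The 4 KO libraries lie above the 4 WT libraries for 6 genes, KO replicate 1 of Mpeg1 falls within the WT range, and Ptprc stays near 0 in both genotypes.

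Of the 8 genes, 5 passed the filter on low counts (Cd53, Cd68, Cd14, Lyz2 and Coro1a) and 3 did not (Laptm5, Mpeg1 and Ptprc). Coro1a passed through its KO libraries alone, with no WT library over the filter's 0.33 CPM, and Lyz2 with 2 WT libraries over it. All 5 were past an edgeR adjusted p of 0.05 upward, beside 20.9% of the 13265 rows tested. In 6 of the 8 every KO library lay above every WT library, beside 21.1% of rows tested. The choice of the genes used this same contrast, so nothing is read from these counts. Over all rows tested, the median log2 fold change was 0.02.

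**Figure D2:**
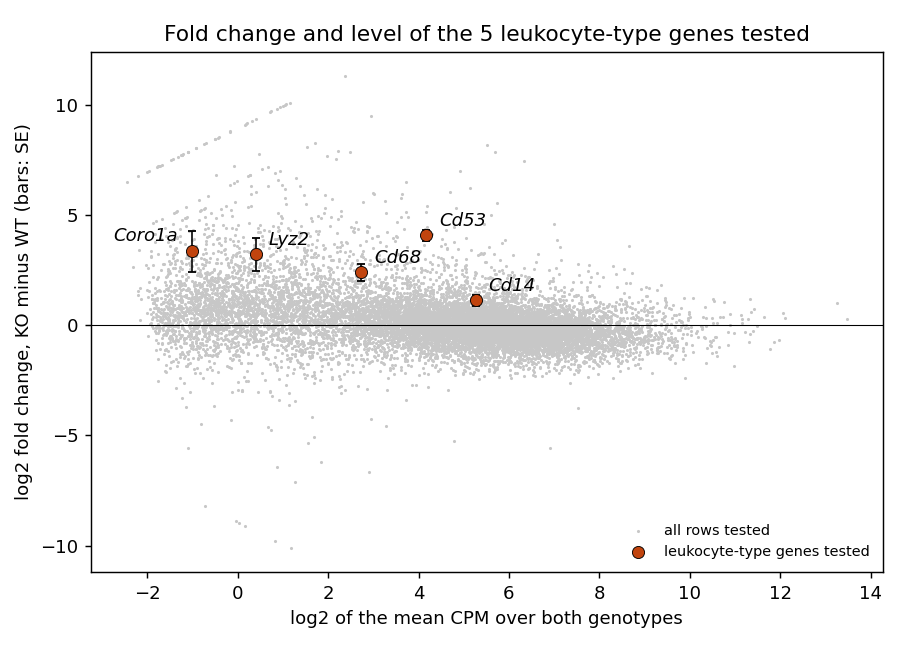
Fitted log2 fold change (KO minus WT, y axis, bars are SE) against the log2 of the mean CPM over both genotypes (x axis) for the 13265 rows tested (grey) and the 5 leukocyte-type genes that passed the filter (orange). The 5 genes span low to middle levels, with Coro1a lowest and Cd14 highest, and fold changes of 1.13 (Cd14) to 4.07 (Cd53).

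Levels between genes were compared per kilobase of annotated exon. In KO the order was Cd14 (30.6 ± 5.61 CPM per kb), Cd53 (19.6 ± 4.45), Cd68 (8.90 ± 1.29), Lyz2 (1.82 ± 0.983), Coro1a (0.327 ± 0.266), Mpeg1 (0.228 ± 0.129), Laptm5 (0.0763 ± 0.0410) and Ptprc (0.000831 ± 0.00166). Down to Lyz2 each gene was above the next in 4 of 4 KO libraries. Coro1a was above Mpeg1 in 2 of 4 KO libraries and Mpeg1 above Laptm5 in 3 of 4, so these neighbours did not differ beyond their spread. In WT, Cd14 (13.9 ± 5.18 CPM per kb) was above all others in 4 of 4 libraries. Cd68 (1.70 ± 0.882 CPM per kb in WT) was above Cd53 (1.16 ± 0.219) in 2 of 4 WT libraries, so their order there was not resolved, whereas in KO Cd53 was above Cd68 in all 4.

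The genes did not share one pattern across libraries. Within KO, replicate 1 was the lowest library for Cd53, Laptm5 and Mpeg1 and the highest for Cd68 and Lyz2. KO replicate 2 was the highest for Cd14 and Coro1a, and replicate 4 the lowest for Cd68, Cd14, Lyz2 and Coro1a. Within WT, replicates 2 and 3 were above replicates 1 and 4 for Cd53, Cd14, Mpeg1 and Coro1a and below them for Cd68. The root mean square difference between log2 CPM profiles centred on their own mean over the 8 libraries was 0.968 to 1.47 between the 5 genes that passed the filter, closest for Cd14 with Coro1a and farthest for Cd53 with Cd14.

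By the same measure, over 11010 annotated genes averaging 1 CPM or more, the genes most like Cd53 were Trp53inp1, a stress-induced regulator of autophagy (0.294), and Naip5, a sensor of bacterial flagellin (0.334). Most like Cd68 were Sla2, an adaptor gene known from lymphocytes (0.341), and Lsp1, a leukocyte actin-binding protein gene (0.384). Cd14 was closest to Ap5z1, a subunit gene of an endosomal adaptor (0.127), and to Loxl3, a lysyl oxidase gene (0.147). Lyz2 was closest to Ncf4, a subunit gene of the phagocyte NADPH oxidase (0.519), and to Myo7a, a myosin gene (0.525). Coro1a was closest to Lvrn, an aminopeptidase gene (0.416), and to Fcgrt, the neonatal Fc receptor gene (0.472). All values are in log2 units, where 0 means the same profile. Naip5 belongs to a family of similar genes, and its own level is uncertain for that reason.

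Promoter sequences were searched for shared motifs. RefSeq windows on GRCm38.p6, from 250 bases before the start to 50 after it, were matched for 7 of the 8 (all but Cd14), 1 window per gene. GGAAGT, the core bound by ETS factors such as PU.1 of the myeloid lineage, was found on either strand in 5 of 7 windows (Cd53, Laptm5, Cd68, Lyz2 and the control Ptprc), and in 24.1% of 27025 such windows of all genes. GGAATG, the core of TEAD sites, was in 0 of 7 and in 14.6% of all. The interferon-stimulated response element was in 0 of 7 and in 3.49% of all. TGANTCA, of AP-1 sites, was in 1 of 7, Cd68, which holds it at positions -149 and -24 from its start, and in 7.93% of all. None of these matches overlapped. The ETS-type matches of Cd53 and Cd68 lay at positions 7 and 12, those of Laptm5 and Lyz2 at -63 and -100, and those of Ptprc at -112 and -58. A match is a description of letters, not of a bound site, and Ptprc held 2 ETS-type matches, more than any of the other genes. Positions are counted from the RefSeq start of each window, which for some genes lies inside the longer GENCODE gene given above. Of the 250 bases before the RefSeq start, 191 for Laptm5 and 49 for Lyz2 are exon in GENCODE, and all 250 for Ptprc and Coro1a lie within the gene, with 1 and 0 exonic bases; those of Cd53, Cd68 and Mpeg1 lie outside it. The 250 bases are printed for Cd68 (chr11:69666171-69666420, minus strand), which holds the AP-1 matches, and for the control Ptprc (chr1:138175306-138175555, minus strand), which holds 2 ETS-type matches, in lower case with the matches in capitals.
Cd68: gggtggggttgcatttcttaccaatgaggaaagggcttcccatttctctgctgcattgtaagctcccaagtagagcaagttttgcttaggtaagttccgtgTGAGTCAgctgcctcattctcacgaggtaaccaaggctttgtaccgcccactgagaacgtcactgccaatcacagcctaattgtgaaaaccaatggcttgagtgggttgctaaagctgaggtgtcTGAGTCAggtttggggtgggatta
Ptprc: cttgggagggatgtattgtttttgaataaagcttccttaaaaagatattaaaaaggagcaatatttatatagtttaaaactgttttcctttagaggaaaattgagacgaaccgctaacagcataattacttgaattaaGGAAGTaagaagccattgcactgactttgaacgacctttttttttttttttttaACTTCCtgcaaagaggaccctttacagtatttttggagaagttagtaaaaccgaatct

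To see how far the 8 stand for leukocyte expression at large, 145 other genes from 8 lists of white blood cell markers were read in the same libraries. Many were near absence: 35 had no count in any library and 60, those 35 included, never passed 3 counts in any library. Of the 25 that passed the filter, 15 rose and 2 fell (60% and 8%, beside 20.9% and 20.6% of all rows), with a median log2 fold change of 1.48 beside 0.02 for all rows. Of the 15, 3 had no WT library over the filter's limit, so they could pass only by being high in KO. The filter asks for 4 libraries over the limit, so genes with fewer WT libraries over it also needed KO libraries to pass. Ly6c2 (11, 0, 0 and 14 counts in WT) and Cd37 (16, 16, 9 and 6) were such genes. With a filter of at least 5 CPM in 4 libraries 9 of the marker genes were tested, of which 6 rose and 2 fell. Of the 10262 rows then tested, 21.3% rose and 2256 fell.

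The defining markers of leukocyte lineages were at or near 0. Adgre1, which encodes the macrophage antigen F4/80, and Cd3e, a CD3 chain gene of the T cell receptor complex, had no count in any library. Csf1r, the macrophage growth factor receptor gene, had 0, 6, 3 and 3 counts in KO replicates 1 to 4 and none in WT. Itgam, the CD11b gene, had 3 counts in KO replicate 3 and 4 in WT replicate 3, and none elsewhere. Ncr1 of NK cells had 1 count, in KO replicate 3. The neutrophil genes S100a8 and Ly6g had 2 to 9 and 4 to 10 counts in KO and none in WT, and S100a9 had 2 counts, in KO replicate 2. Cd52 had 0, 2, 9 and 4 counts in KO and none in WT, and Cd48 had 0, 6, 5 and 7 counts in KO and 0, 8, 0 and 0 counts in WT. Spi1, the PU.1 gene, had 3, 5, 4 and 0 counts in KO and 3, 0, 0 and 13 counts in WT. None of these 11 genes passed the filter. Itgb2, the common chain of leukocyte integrins, was the exception among the defining markers, at 18.7, 13, 10.6 and 9.81 CPM in KO and 2.61, 5.70, 3.61 and 1.92 CPM in WT.

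The markers that rose were spread over lists. Of 39 pan-leukocyte genes, 14 passed the filter, 8 rose and 2 fell (57.1% and 14.3%, beside 20.9% and 20.6% of all rows). Ptpn6, named after its values were seen, was among the 8 (edgeR adjusted p = 0.0369). Its call was lost without KO replicate 1, 2 or 3 or WT replicate 1, 3 or 4. Itgb2 rose by 1.91 on the log2 scale (SE 0.36, edgeR adjusted p = 0.00356), and the tetraspanin gene Cd37 stood at 2.30 ± 0.579 CPM in KO and 0.413 ± 0.183 CPM in WT (adjusted p = 0.00251). Ncf4 was at 8.80 ± 1.38 CPM in KO and 0.865 ± 0.422 CPM in WT (edgeR adjusted p = 0.000591; log2 fold change 3.34, SE 0.39), and Lsp1 rose by 2.05 (adjusted p = 0.00327). The 2 that fell, named after their values were seen, were Lyn, a Src-family kinase gene (13.6 ± 3.65 CPM in KO, 23.6 ± 2.18 CPM in WT, adjusted p = 0.0124), and Arhgdib. Arhgdib was the most abundant leukocyte marker, at 289, 133, 151 and 153 CPM in KO and 558, 293, 183 and 588 CPM in WT, with overlap (adjusted p = 0.0363). Its call was lost when WT replicate 1 or 4 or KO replicate 2, 3 or 4 was left out (adjusted p = 0.0887 to 0.1005), and with upper-quartile scaling (0.0501).

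Among 28 monocyte and macrophage genes, 9 were at 0 throughout, 4 passed the filter and 3 of these rose. Trem2, a lipid receptor gene of macrophages, was at 1.30 ± 0.466 CPM in KO and 0.0341 ± 0.0683 CPM in WT (edgeR adjusted p = 0.00267). It had 0, 4, 0 and 0 counts in WT, no WT library over the filter's limit, so it passed through its KO libraries alone. Mertk, a receptor for engulfing dead cells, was at 6.22 ± 2.35 CPM in KO and 1.65 ± 0.408 CPM in WT (adjusted p = 0.00271), and Ly6c2 rose by 3.46 on the log2 scale (adjusted p = 0.0163; 0.0531 with the WT libraries averaged in pairs). Of 15 dendritic cell and MHC class II genes, 2 were at 0 throughout, 3 passed the filter and all 3 rose. Over all rows tested, 20.9% rose. Cd74, the MHC class II invariant chain gene, rose by 2.94 (SE 0.46, adjusted p = 0.00178) and Zbtb46, a dendritic cell factor gene, by 1.48 (adjusted p = 0.00752). H2-DMa, a class II peptide exchange gene, rose by 1.16 (adjusted p = 0.0303), a call lost without any 1 of KO replicates 2 to 4 or WT replicates 1, 2 and 4. The class II chain gene H2-Ab1 had no count in any library. H2-Aa had 2 counts, in KO replicate 4, and H2-Eb1 had 2 counts, in KO replicate 2. These chain genes were named after their values were seen. Of 16 T cell, 12 B cell and 10 NK cell genes, only 1, 2 and 1 passed the filter, so the others had no test. Among those tested 1 was called, Il2rb, an interleukin receptor chain gene. Il2rb was at 1.30 ± 0.323 CPM in KO and 0.0621 ± 0.124 CPM in WT (edgeR adjusted p = 0.00687). With 0, 0, 0 and 7 counts in WT, no WT library over the filter's limit, it too passed through its KO libraries alone. No gene of the neutrophil or the mast cell, basophil and eosinophil lists passed the filter. Without a filter edgeR called 3 of 15 neutrophil genes as higher, beside 14.5% of all rows then tested. Of the 15, 4 were at 0 in all libraries and had no test.

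Detection followed the same libraries. KO replicates 2, 3 and 4 had a count for 79, 84 and 80 of the 145 marker genes (54.5% to 57.9%), and KO replicate 1 for 43 (29.7%). The WT libraries had a count for 36 to 45 (24.8% to 31.0%). Over all rows of the table, KO replicates 2 to 4 had a count for 66.7% to 67.4%, KO replicate 1 for 53.8% and the WT libraries for 54.7% to 57.9%. Endothelial markers were detected for 6, 6 and 7 of 9 genes in KO replicates 2 to 4, 3 in KO replicate 1 and 1 to 4 in WT. The summed level of the 145 genes was 324 to 516 CPM in KO and 291 to 689 CPM in WT, of which Arhgdib held 37.9% to 56.0% in KO and 62.7% to 85.4% in WT. Without Arhgdib the sums were 171 to 227 CPM in KO and 101 to 112 CPM in WT. The part of a small number of admixed cells in these counts was not tested.

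**Figure D3:**
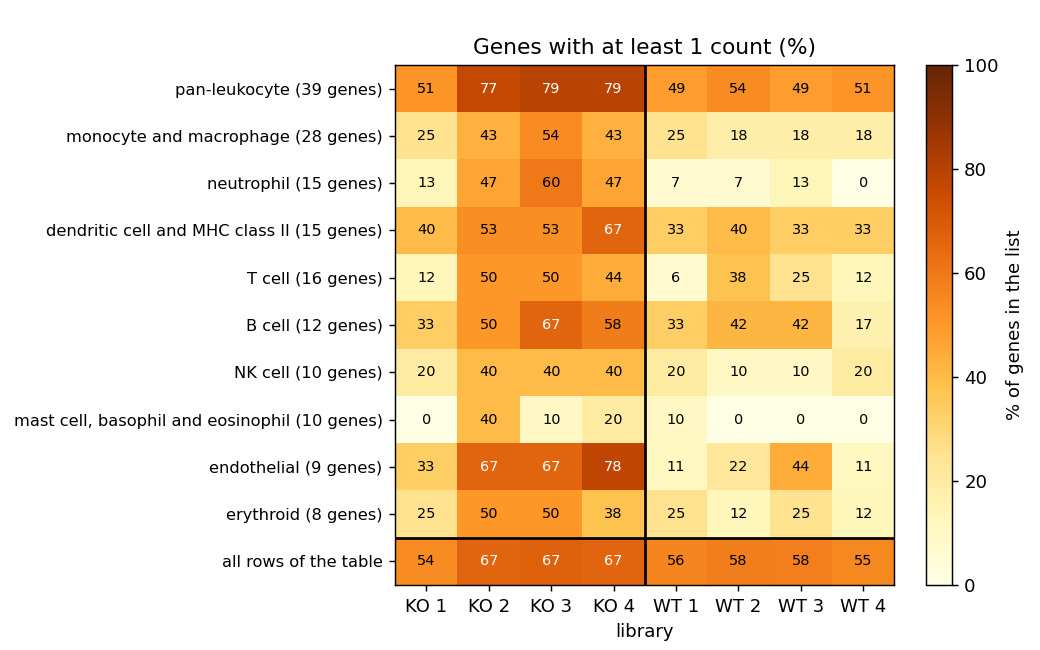
Percentage of genes with at least 1 count (colour and printed number) for 8 leukocyte lists, endothelial and erythroid lists and all rows of the table (rows of the plot), by library (columns, KO left of the line and WT right of it). KO replicates 2 to 4 show higher shares than KO replicate 1 and the WT libraries in most lists and over all rows.

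Genes of other lineages were read as a comparison, with 20.9% of all rows tested rising. Of 9 endothelial genes 2 passed the filter and both rose, Tie1 with 4.11 ± 1.58 CPM in KO and 0.0842 ± 0.168 CPM in WT (edgeR adjusted p = 0.00267) and Vwf with 5.58 ± 3.98 CPM in KO and 0.118 ± 0.159 CPM in WT (adjusted p = 0.0028). Tie1 had 0, 0, 10 and 0 counts in WT and Vwf 0, 4, 10 and 0. Neither had a WT library over the filter's limit of 0.33 CPM, which uses CPM without TMM scaling. Both genes therefore passed through their KO libraries alone. Of 19 epithelial and colonic genes 5 passed the filter and 3 rose, namely Krt7 (log2 fold change 4.17), Lgals4 (4.71) and Krt18 (0.99), with edgeR adjusted p of 0.00107 or less. Of 13 fibroblast and mesenchymal genes 8 passed and 4 rose, namely Dcn, Pdgfra, Col3a1 and Pdgfrb, with edgeR adjusted p of 0.000803, 0.000837, 0.0152 and 0.026. Dcn had 0, 0, 0 and 4 counts in WT, no WT library over that limit, so it passed the filter through its KO libraries alone. The Pdgfrb call was lost without WT replicate 1 or 4 or KO replicate 2, 3 or 4. No erythroid gene passed the filter.

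Transcription factors of blood cells were mostly absent or shared with other tissues. Of 25 such genes, 8 were at 0 throughout, 9 passed the filter, 5 rose and 1 fell, where 20.9% of all rows tested rose and 20.6% fell. Klf2 was at 56.9 ± 14.7 CPM in KO and 9.79 ± 3.13 CPM in WT (edgeR adjusted p = 0.000417). Mitf, which regulates lysosomal and pigment genes, had a log2 fold change of 1.52 (adjusted p = 0.00333), and Cebpd, a factor of acute inflammation, one of 1.69 (adjusted p = 0.00374). Gata2, a factor of blood progenitors, fell by 0.90 (adjusted p = 0.00621). The other increases, in Irf8 and Klf4 (named after their values were seen; adjusted p = 0.0227 and 0.0427), were both lost without KO replicate 2, which left 3 increases. The Irf8 call was also lost without WT replicate 2 or 4, and the Klf4 call without any 1 library other than KO replicate 1.

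The kin of each gene, from lists that hold the other members of its family or pathway, moved in different ways. In all, 103 kin genes were in the table, 52 passed the filter, 20 rose and 5 fell (38.5% and 9.62%, beside 20.9% and 20.6% of all rows). Of the 20, 1 (Lbp) had no WT library over the filter's limit and could pass only by being high in KO. Cd37, with 16, 16, 9 and 6 counts in WT, also needed KO libraries to pass.

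Beside Cd53, 9 of 17 tetraspanin genes rose and none fell, with a median log2 fold change of 0.68. Tspan32, a tetraspanin of blood cells, was at 29.7 ± 5.46 CPM in KO and 2.87 ± 1.80 CPM in WT (edgeR adjusted p = 0.00085), and Tspan11 at 52.3 ± 2.28 CPM in KO and 10.3 ± 5.10 CPM in WT (adjusted p = 0.00111). The widely expressed Cd63, of late endosomes, and Cd9 had log2 fold changes of 0.94 and 1.15 (edgeR adjusted p of 0.00261 and 0.00361). Tspan9 rose by 0.75 (adjusted p = 0.0127; 0.0898 with the WT libraries averaged in pairs). The tetraspanin counts were within 1.5 times under every scaling, filter, tool and left-out library that was run.

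Beside Laptm5, both other LAPTM genes rose. Laptm4b was at 109 ± 11.7 CPM in KO and 47.3 ± 9.56 CPM in WT (edgeR adjusted p = 0.00122), and Laptm4a at 363 ± 44.7 CPM in KO and 230.1 ± 8.67 CPM in WT (adjusted p = 0.00592). The Laptm4a call was lost with the WT libraries averaged in pairs (adjusted p = 0.0601). Beside Cd68, the lysosomal membrane genes Lamp1 and Lamp2 did not pass the test. Lamp1 was at 793 ± 223 CPM in KO and 921 ± 203 CPM in WT (log2 fold change -0.22, SE 0.24, adjusted p = 0.495), and Lamp2 at 388 ± 63 CPM in KO and 313 ± 101 CPM in WT (0.31, SE 0.24, adjusted p = 0.311).

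Beside Cd14, 6 of 17 genes of its co-receptors and the Toll-like receptor pathway rose and 2 fell, with a median log2 fold change of -0.07. The number that fell was 4 without KO replicate 1 and 1 without KO replicate 2, 3 or 4 or WT replicate 1, with upper-quartile or library-size scaling, and with the WT libraries averaged in pairs. With at least 5 CPM in 4 libraries, 3 rose. Tlr4, the receptor that acts with CD14, was at 42.7, 63.9, 78.5 and 84.1 CPM in KO and 27.3, 37.6, 30.9 and 24.7 CPM in WT. Its groups did not overlap, and it rose by 1.16 on the log2 scale (SE 0.23, edgeR adjusted p = 0.00424). Lbp, the serum protein that carries lipopolysaccharide to CD14, had 467 counts over the KO libraries and 3 over the WT libraries. The ratio was 135, with a 95% exact binomial (Clopper-Pearson) interval of 46.0 to 658. That interval covers counting error at best, and is too narrow if read mates were counted separately. Ly96, which encodes the third part of the TLR4 complex, was at 2.78 ± 1.02 CPM in KO and 2.85 ± 1.22 CPM in WT and did not pass (log2 fold change -0.03, SE 0.39, adjusted p = 0.952). Tlr3 rose by 1.23 (adjusted p = 0.00461) and the kinase gene Irak2 by 0.88 (adjusted p = 0.00649). Hsp90b1, the chaperone of Toll-like receptors, fell to 1067 ± 183 CPM in KO, against 2122 ± 628 CPM in WT (adjusted p = 0.0113), and Irak1 did not pass (-0.20, adjusted p = 0.207).

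Beside Lyz2, the 6 other lysozyme genes had no count in any library. Beside Mpeg1, none of 11 genes of the pore-forming MACPF family passed the filter. The complement gene C9 had 0, 3, 5 and 0 counts in KO and none in WT, and Astn1, a neuronal guidance gene, had 3 counts in KO replicate 2 and 4 in WT replicate 3.

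Beside Coro1a, 4 of 6 coronin genes passed the filter and 2 fell, none rising. Coro2a was at 14.7 ± 5.47 CPM in KO and 46.4 ± 7.32 CPM in WT (edgeR adjusted p = 0.00141), and Coro1c at 124 ± 26.5 CPM in KO and 236 ± 45.6 CPM in WT (adjusted p = 0.00579). Coro1b and Coro7 did not pass (log2 fold changes 0.17 and 0.09, SE 0.15 and 0.16, adjusted p = 0.38 and 0.67), and Coro7 was on the negative side without WT replicate 4 (-0.035).

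Beside Ptprc, 3 of 10 receptor tyrosine phosphatase genes rose and 1 fell; without KO replicate 1, 6 rose. Ptprq was at 11.9 ± 4.50 CPM in KO and 1.36 ± 0.268 CPM in WT (edgeR adjusted p = 0.000333), and Ptprj at 35.1 ± 3.30 CPM in KO and 24.0 ± 1.41 CPM in WT (adjusted p = 0.00929; 0.0736 with the WT libraries averaged in pairs). Ptprf fell to 0.232 ± 0.162 CPM in KO, against 1.89 ± 0.767 CPM in WT (adjusted p = 0.00963). Ptprt rose by 2.05 (adjusted p = 0.036), a call lost without KO replicate 3 or 4 or any 1 WT replicate. The abundant Ptprs and Ptpra did not pass (0.57 and 0.01, SE 0.30 and 0.16, adjusted p = 0.145 and 0.964).

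**Figure D4:**
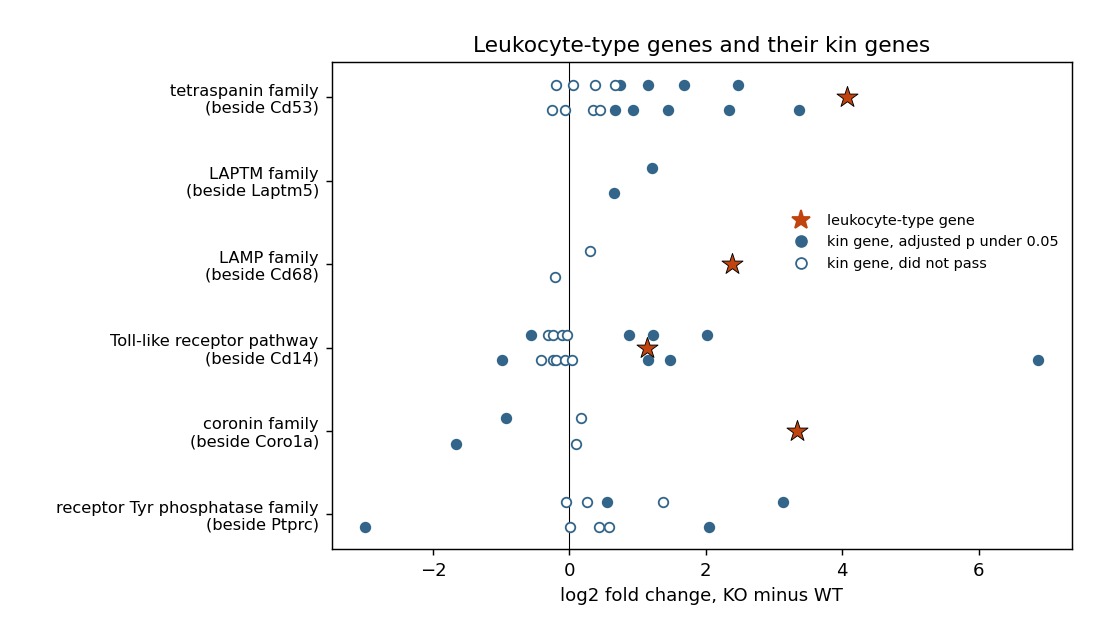
Fitted log2 fold change (KO minus WT, x axis) of the kin genes that passed the filter, grouped by family or pathway (y axis; vertical offsets carry no value); filled points passed an edgeR adjusted p of 0.05, open points did not, and stars mark the leukocyte-type gene of the row where it passed the filter. Cd53, Cd68 and Coro1a lie right of all their plotted kin, whereas Cd14 lies among its pathway.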

How the data were processed

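Messenger RNA of 8 CT26 libraries, 4 Tead1/4 knockout and 4 WT by title and genotype label, was sequenced on Illumina libraries made with a Yeasen kit, per the labels' protocols. The submitters' processing notes name HISAT2, StringTie and GRCm38; no source used here names the counter, its strand setting or how it treats shared reads. Raw counts per row were deposited by the authors, in 2 tables with identical values; 22036 rows are annotated genes and 4606 are other loci. Counts of 1 are rarer (101 to 225 rows a library) than counts of 2 (288 to 981 rows), so mates may have been counted separately, and floors cover counting error at best. Libraries of a genotype differed by a chi-square per degree of freedom of 34.7 to 257, and each was treated as 1 replicate. These values cannot show that the libraries are separate cultures. WT replicates 1 and 4 (34.7) and 2 and 3 (35.0) were closest, and the other WT pairs lay at 201.5 to 241.5.

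Computed here: filterByExpr (minimum count 10, minimum total 15), TMM scaling and edgeR 4.0.16 quasi-likelihood tests (R 4.3.3), two-sided, knockout minus WT, Benjamini-Hochberg adjusted over 13265 rows, threshold 0.05. The SE is the log2 fold change over the square root of F. CPM are TMM-scaled; exon lengths and coordinates come from GENCODE M21 on GRCm38, and promoter windows from RefSeq. The test was checked on simulated counts. The members and the 21 lists were chosen with earlier results of these data known. Named are the 8 genes, the defining markers, up to 4 called genes per list by p, the 2 most abundant other kin, and the 2 genes most like each member; further names are marked, and 1 defining marker is not reported here. Replicate numbers did not pair the libraries. Alternatives were other scalings, filters, DESeq2 1.42.0, limma-voom (limma 3.58.1), annotated genes only, a replicate block and each library left out; averaging the WT libraries in pairs was added after the data were seen.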

Additional observations from a re-analysis of the deposited data

Results flagged for a closer look

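In 16 of 116 groups of 4 libraries examined, 1 library stood apart from the other 3, with a gap over the range above Dixon's 95% critical value. Chance alone flags about 1 in 20 such groups. In 9 of the 16 the other 3 libraries were at 0, which gives a value of 1 by construction: Ptprc in KO and in WT, Astn1 in KO and in WT, and Trem2, Il2rb, Lbp, Dcn and Tie1 in WT. Cd68 in KO replicate 4 (8.77 CPM, others 11.8 to 12.3) gave 0.862. Cd14 in KO replicate 2 (67.5 CPM, others 47.0 to 49.6) gave 0.874. Mpeg1 in KO replicate 1 (0.158 CPM, others 1.16 to 1.34) gave 0.847. Coro1a in KO replicate 2 (2.01 CPM, others 0.428 to 0.669) gave 0.848. Ncf4 in KO replicate 4 (6.72 CPM, others 9.48 to 9.50) gave 0.992, Cd37 in KO replicate 1 (3.16 CPM, others 1.93 to 2.10) 0.858, and Cd9 in KO replicate 1 (369 CPM, others 516 to 539) 0.863.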

How the results depend on the processing

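Rows called higher numbered 2779 and rows called lower 2734; averaging the WT libraries in pairs gave 1617 and 1708, and leaving out 1 library gave 2041 to 3420 higher and 1768 to 3409 lower. Of the leukocyte-type genes 5 were called higher, 3 with at least 5 CPM in 4 libraries, where only 3 are tested, and 4 to 6 with 1 library left out. Of the leukocyte list genes 15 were called higher, 6 with at least 5 CPM in 4 libraries, where 9 are tested, and 13 to 17 with 1 library left out. By list, that 5 CPM filter left 5 pan-leukocyte increases and 1 dendritic cell and MHC class II increase. No monocyte-macrophage, NK cell or endothelial gene passed it, so none of those was tested. The 2 list genes called lower became 1 with upper-quartile factors or the WT libraries averaged in pairs, and 1 to 2 with 1 library left out, Arhgdib being the one lost. Kin genes stayed within 1.5 times of 20 higher and 5 lower. Ptpra (log2 fold change 0.01) turned negative without KO replicate 2, WT replicate 2 or WT replicate 3 (-0.095 to 0.10 over left-out libraries) and with WT averaged in pairs (-0.041); Coro7 turned negative without WT replicate 4 (-0.035 to 0.147 over left-out libraries). The causes were not tested. Upper-quartile factors and library size only put the median over all rows at 0.20 in log2, and rows higher among those called to 64.6% and 63.5%, against 50.4%. With the replicate block, 5 leukocyte-type genes, 13 list genes and 19 kin genes were called higher, and the calls of H2-DMa, Ptprt, Irf8, Klf4 and Ptpn6 were lost; same-numbered libraries did not deviate together (correlations -0.032 to -0.0028), so they share only a number. Depth limits Ptprc, with at most 3 counts in any library, and the markers at 0 throughout.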
